A study of Homo sapiens with 12 samples.

Results

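Transcripts of the mitochondrial respiratory chain were followed in a human breast epithelial cell line in which ErbB receptors had been engaged in different ways. The genes were those whose symbol in the array's probe annotation begins with NDUFA, NDUFB, NDUFC, NDUFS, NDUFV, SDHA to SDHD, UQCR, COX4 to COX8 or ATP5, taken from probe sets that name exactly 1 gene. This gave 100 of 33297 probe sets and 92 of 18417 genes, and each gene was read through whichever of its probe sets was brightest on average on the 12 arrays. Complex I contributed 41 genes, complex II 6, complex III 7, complex IV 17 and complex V 18, and the other 3 were 2 pseudogenes and a divergent transcript. Of these, 70 were subunits in general use, 6 were complex IV isoforms of particular tissues and 10 were assembly factors whose symbols share the prefixes. A further 10 probe sets that name a chain gene beside another gene were left out by the same rule.

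The cells were MCF10A, a non-tumorigenic breast epithelial line, and all groups carried a stably transfected full-length human HER2 chimera with FKBP and HA tags. The groups were AP1510, a bivalent FKBP ligand that pairs the tagged receptors with each other, TGF-alpha, a ligand of EGFR, heregulin, a ligand of HER3 and HER4, and untreated cells, with 3 arrays each. Per the labels' protocols, ligand was added after 24 hours without horse serum and EGF, with cholera toxin, hydrocortisone and insulin kept, and cells were lysed for RNA 48 hours later. The sources used here give no dose, vehicle or batch and no harvest time for untreated cells, so that time in culture and treatment cannot be told apart in comparisons with them. Each array stands for a dish of a triplicate, and p-values therefore describe variation among dishes of a single line.

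The respiratory chain passes electrons from NADH through complex I, or from succinate through complex II, to coenzyme Q, then through complex III, cytochrome c and complex IV to oxygen, and complex V uses the resulting proton gradient to make ATP. Complexes I, III, IV and V combine subunits encoded in the nucleus with subunits encoded by mitochondrial DNA, whereas complex II is nuclear throughout. The 13 mitochondrially encoded subunits were not analysed here.

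Values are log2 intensities, a difference of 1 being a doubling, and a gene was called where limma gave an adjusted p under 0.05 over all 18417 genes of a contrast. Array medians were 5.33 to 5.44, and arrays correlated at 0.988 to 0.994 within groups and 0.978 to 0.993 between groups, taken over probe sets of the same arrays. Of 9 measured epithelial markers, AP1510 raised 2 and lowered 0, TGF-alpha raised 6 and lowered 2, and heregulin raised 2 and lowered 1, EPCAM. Over the 4 basal ones, led by the keratin KRT5, the mean level per array was 9.84 to 9.92 in AP1510, 10.21 to 10.27 in TGF-alpha, 9.93 to 10.01 in heregulin and 9.60 to 9.63 in untreated cells. Over the other 5 it was 9.89 to 10.03 in AP1510, 10.24 to 10.29 in TGF-alpha, 9.56 to 9.74 in heregulin and 9.86 to 9.96 in untreated cells. The leukocyte gene PTPRC averaged 2.92 to 3.01 in all groups. Of 12 measured leukocyte, endothelial and fibroblast markers, 0 were called with AP1510 in limma, 4 with TGF-alpha (KDR higher, CD68, CDH5 and DCN lower) and 4 with heregulin (KDR and DCN higher, PECAM1 and CDH5 lower). Their mean level per array was 4.99 to 5.15 in AP1510, 4.94 to 4.96 in TGF-alpha, 5.15 to 5.22 in heregulin and 5.07 to 5.09 in untreated cells. Beside these marker counts, limma called 1.47%, 26% and 8.5% of all genes with AP1510, TGF-alpha and heregulin. The proliferation gene MKI67 averaged 9.01, 10.06 and 8.70 in AP1510, TGF-alpha and heregulin cells and 8.20 in untreated cells. The part of these genes in the results below was not tested, and in bulk RNA fewer cells of a type and less RNA per cell cannot be told apart.

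TGF-alpha changed chain genes in both directions, heregulin lowered 2 of them past the threshold, and AP1510 moved none past it. Against untreated cells, TGF-alpha raised 13 of 92 members and lowered 6, a share of 14.1% and 6.52%, where 12.5% of all genes rose and 13.4% fell, together 26%. Heregulin raised 0 in limma and lowered 2, NDUFB5 and NDUFA2, against 3.45% and 5.06% of all genes, together 8.5%. At an unadjusted p under 0.05 these counts for heregulin were 0 higher and 20 lower. The share of all genes at an unadjusted p was not counted for any contrast, so such counts have no background beside them. AP1510 raised and lowered 0 in limma, against 0.771% and 0.7% of all genes, together 1.47%, and 6 were higher and 7 lower at an unadjusted p under 0.05. The moderated F test called 26 members different among the 4 groups, 28.3% of them, against 28.5% of all genes. The members are brighter than most genes, with a median level of 8.14. Among the 3114 genes with a mean of at least 8, 24.5% rose and 24.7% fell with TGF-alpha, 6.55% and 9.28% did so with heregulin, and the F test called 53.5%. The members' shares of called genes lay below those of such bright genes in each of these counts, and this difference was not tested. The 92 members include dim genes, with means from 2.85 to 12.49, so the sets compared are unlike in level.

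The median log2 difference over the 92 members was -0.02 with AP1510, 0.05 with TGF-alpha and -0.12 with heregulin, where the medians over all genes were -0.01, -0.01 and 0.01. All 3 TGF-alpha arrays lay above the untreated arrays in 25 members, 27.2%, and below in 13, 14.1%, where 19.4% and 20.8% of all genes did so, together 40.2%. Folds of called members were modest, 1.18 to 2.14 for the rises with TGF-alpha and 1.18 to 1.31 for its falls. The 13 rises with TGF-alpha fell to 6 without untreated replicate 1 and to 6 without TGF-alpha replicate 2, and the 6 falls to 3 without untreated replicate 1. The 2 falls with heregulin became 0 without untreated replicate 1 or heregulin replicate 2, 1 without untreated replicate 2 and 4 without heregulin replicate 1.

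**Figure D1:**
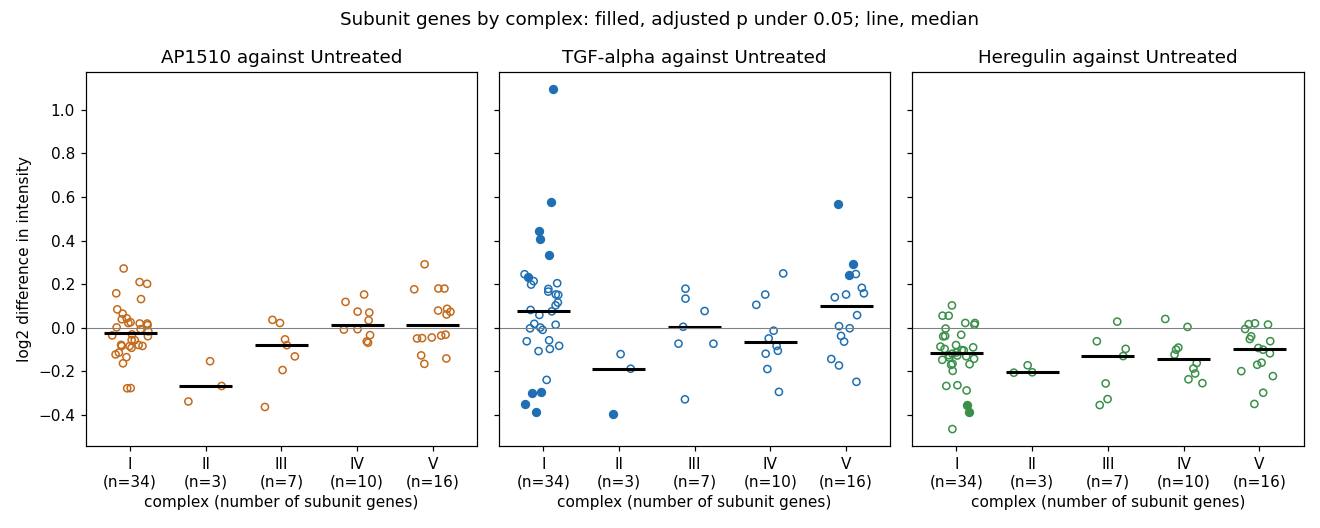
Log2 difference of each subunit gene (points) from untreated cells, for AP1510, TGF-alpha and heregulin, by complex, with tissue isoforms and assembly factors left out; filled points had an adjusted p under 0.05 and lines mark medians. Called genes appear for TGF-alpha in complexes I, II and V and for heregulin in complex I, and the medians for heregulin lie between -0.20 and -0.10 in complexes I to V.

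Complex I genes moved both ways with TGF-alpha. Of its 34 subunits among the members, 6 rose and 4 fell, 17.6% and 11.8%. Of all genes, 12.5% rose and 13.4% fell, and of genes with a mean of at least 8, 24.5% and 24.7% did so. The median log2 difference of complex I was 0.08, and 0.0395 without TGF-alpha replicate 2. The largest rise was that of NDUFAB1, the mitochondrial acyl carrier protein, which is a complex I subunit and also serves fatty acid and iron-sulfur cluster synthesis. NDUFAB1 had log2 levels of 8.45, 8.50 and 8.57 in TGF-alpha cells, against 7.55, 7.31 and 7.38 in untreated cells. Its level was 7.75, 7.74 and 7.57 in AP1510 cells and 7.67, 7.27 and 7.46 in heregulin cells, so all 3 TGF-alpha arrays lay above every other array. The log2 difference between TGF-alpha and untreated cells was 1.10 ± 0.11 (SE, n = 3 arrays each), a fold of 2.14 (limma adjusted p = 8e-07). With AP1510 the log2 difference of NDUFAB1 was 0.27 (limma adjusted p = 0.3), and with heregulin it was 0.06.

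NDUFS6, a zinc-binding subunit of the matrix arm, had log2 levels of 9.08, 9.10 and 9.01 in TGF-alpha cells, against 8.55, 8.78 and 8.52 in untreated cells. The 2 groups did not overlap, and the log2 difference was 0.45 ± 0.09 (limma adjusted p = 0.0017). NDUFA12, an accessory subunit of the matrix arm, had levels of 8.28, 8.55 and 8.45 in TGF-alpha cells, against 8.04, 8.02 and 7.99 in untreated cells, a log2 difference of 0.41 (limma adjusted p = 0.0031). NDUFA8, an accessory subunit on the intermembrane side, rose by 0.34 on the log2 scale, with levels of 7.98, 8.16 and 8.10 in TGF-alpha cells, against 7.61, 7.90 and 7.72 in untreated cells (limma adjusted p = 0.015). This call was lost in 2 of 12 refits that left out 1 array, with an adjusted p of 0.085 in limma without untreated replicate 1.

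NDUFB6, a subunit of the membrane arm, had levels of 5.29, 5.67 and 5.22 in TGF-alpha cells, against 4.78, 4.47 and 5.18 in untreated cells. The groups were separated by a small gap, and the log2 difference of 0.58 ± 0.18 (limma adjusted p = 0.027) was lost in 3 of 12 refits, among them the one without untreated replicate 2 (adjusted p = 0.15), and with all probe sets tested (adjusted p = 0.079). NDUFS3, a core subunit of the matrix arm, rose by 0.23 on the log2 scale (limma adjusted p = 0.049), a call lost in 9 of 12 refits, with an adjusted p of 0.18 without TGF-alpha replicate 2. Of the 6 core subunits, NDUFS3 was the one that rose and NDUFV1 the one that fell. NDUFS1, the largest iron-sulfur subunit, showed the smallest difference in the complex, with levels of 9.47, 9.63 and 9.51 in TGF-alpha cells, against 9.56, 9.50 and 9.55 in untreated cells.

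**Figure D2:**
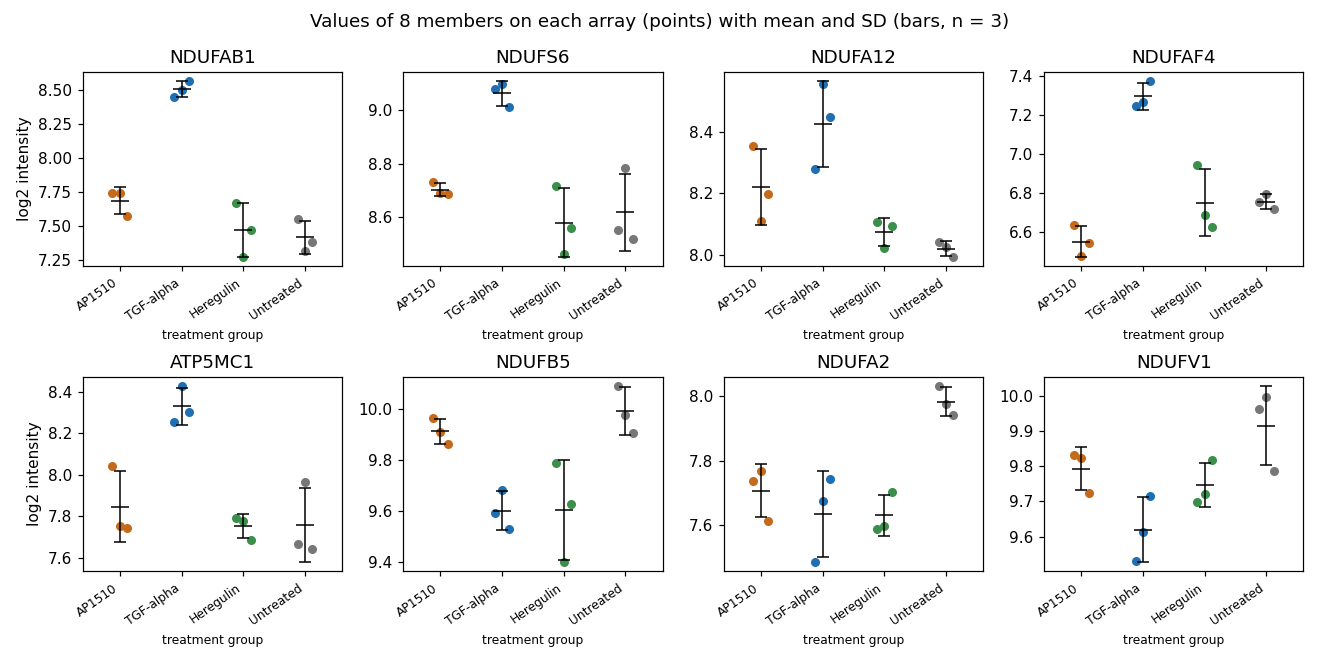
Log2 intensity of 8 members on each array (points) in AP1510, TGF-alpha, heregulin and untreated cells, with the mean and SD (bars, n = 3); each panel has its own axis. NDUFAB1, NDUFS6, NDUFAF4 and ATP5MC1 are highest on the 3 TGF-alpha arrays, with 8.45 to 8.57 for NDUFAB1, and NDUFA2 is highest on the 3 untreated arrays, with 7.94 to 8.03.

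The subunits that fell with TGF-alpha were NDUFB5, NDUFA2, NDUFB1 and NDUFV1. NDUFB5, of the membrane arm, had log2 levels of 9.59, 9.68 and 9.53 in TGF-alpha cells and 9.79, 9.40 and 9.63 in heregulin cells, against 10.09, 9.98 and 9.90 in untreated cells. Both ligand groups lay below the untreated arrays, while AP1510 cells, at 9.96, 9.91 and 9.86, overlapped them. The log2 differences were -0.39 ± 0.10 with TGF-alpha (limma adjusted p = 0.0078) and -0.38 ± 0.10 with heregulin (limma adjusted p = 0.024). NDUFA2, a matrix-arm subunit with a thioredoxin fold, had levels of 7.74, 7.77 and 7.61 in AP1510 cells, 7.48, 7.68 and 7.74 in TGF-alpha cells and 7.59, 7.60 and 7.70 in heregulin cells, against 8.03, 7.98 and 7.94 in untreated cells. All 9 treated arrays lay below the 3 untreated arrays. The log2 differences of NDUFA2 were -0.35 ± 0.09 both with TGF-alpha (limma adjusted p = 0.0072) and with heregulin (limma adjusted p = 0.019), and -0.28 with AP1510 (limma adjusted p = 0.18).

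The calls of NDUFB5 and NDUFA2 with TGF-alpha held in all 12 refits that left out 1 array, and those with heregulin were each lost in 4, with adjusted p of 0.11 and 0.082 in limma without untreated replicate 1. NDUFB5 also lost the call with heregulin when all probe sets were tested (adjusted p = 0.058) and when only the 2 groups were fitted (adjusted p = 0.083). NDUFV1, the core subunit that binds NADH and FMN, had levels of 9.53, 9.61 and 9.72 in TGF-alpha cells, against 9.96, 10.00 and 9.79 in untreated cells, a log2 difference of -0.30 (limma adjusted p = 0.019). NDUFB1 differed by -0.30 (limma adjusted p = 0.023), with levels of 7.63, 7.53 and 7.35 in TGF-alpha cells, against 7.80, 7.83 and 7.77 in untreated cells. Leaving out 1 array ended the call of NDUFV1 in 4 of 12 refits, with an adjusted p of 0.086 without TGF-alpha replicate 1, and that of NDUFB1 in 3, with 0.13 without TGF-alpha replicate 3.

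Among the 10 assembly factors, which help build the complexes without staying in them, 4 rose with TGF-alpha and 0 fell. These were 40% and 0%, where 12.5% of all genes rose and 13.4% fell. Through the probe sets used, heregulin and AP1510 changed 0 in limma, against 8.5% and 1.47% of all genes. NDUFAF4, a complex I factor, had log2 levels of 7.25, 7.26 and 7.37 in TGF-alpha cells, against 6.75, 6.80 and 6.72 in untreated cells. Every TGF-alpha array lay above the AP1510 arrays, at 6.64, 6.48 and 6.55, and the heregulin arrays, at 6.94, 6.69 and 6.63. The log2 difference from untreated cells was 0.54 ± 0.09 (limma adjusted p = 0.00034), and no refit without 1 array ended the call. SDHAF3, which serves the maturation of the iron-sulfur subunit of complex II, differed by 0.38, NDUFAF2, which occupies the place of NDUFA12 during assembly, by 0.36, and NDUFAF5, which modifies NDUFS7, by 0.35 (limma adjusted p = 0.016, 0.0095 and 0.029). The call of SDHAF3 was lost in 3 of 12 refits, of NDUFAF2 in 1 and of NDUFAF5 in 4, with adjusted p of 0.1, 0.062 and 0.12 at most, and that of NDUFAF5 also with all probe sets tested (0.062). NDUFAF1, NDUFAF3, NDUFAF6, NDUFAF7, SDHAF2 and SDHAF4 did not pass in any contrast.

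Complex II gave a result that depended on the probe set. Through the brighter probe sets, SDHC, a membrane anchor, had log2 levels of 9.21, 9.08 and 9.13 in AP1510 cells, 8.97, 9.19 and 8.87 in TGF-alpha cells and 9.23, 9.08 and 9.29 in heregulin cells, against 9.40, 9.38 and 9.43 in untreated cells. All treated arrays lay below the untreated ones, and the difference with TGF-alpha was -0.39 ± 0.09 on the log2 scale (limma adjusted p = 0.0049). SDHD, the other anchor, had levels of 8.50, 8.46 and 8.57 in AP1510 cells, against 8.86, 8.74 and 8.93 in untreated cells, a log2 difference of -0.34 (limma adjusted p = 0.098), the lowest adjusted p of any member with AP1510. That difference passed in limma after genes with a mean under 6 were removed (adjusted p = 0.042) and with a trended and robust variance (0.039). SDHA, the flavoprotein that oxidises succinate, lay at 10.34, 10.25 and 10.39 in AP1510 cells, 10.32, 10.34 and 10.23 in TGF-alpha cells and 10.28, 10.33 and 10.33 in heregulin cells, against 10.48, 10.50 and 10.47 in untreated cells. All 9 treated arrays again lay below the untreated arrays, by -0.15, -0.19 and -0.17 on the log2 scale, and none of these differences of SDHA passed (limma adjusted p = 0.49, 0.093 and 0.22).

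The probe sets used for SDHC and SDHD are numbered among those of other chromosomes. SDHC lies on chromosome 1 and SDHD on chromosome 11, and all 20 neighbours in number of the used probe sets name genes of chromosome 17 for SDHC and chromosome 1 for SDHD. Each has a second probe set whose 20 neighbours are on the gene's own chromosome. Through this one, SDHC had log2 levels of 7.24, 7.28 and 7.51 in TGF-alpha cells, against 7.27, 7.30 and 7.14 in untreated cells, so the groups overlapped and the log2 difference was 0.10 (limma adjusted p = 0.51). SDHD had 7.82, 7.62 and 7.86 in AP1510 cells, against 8.01, 7.85 and 7.64 in untreated cells, again overlapping. The mean over SDHA, SDHC and SDHD then ran, relative to the untreated mean, from -0.12 to 0.03 in AP1510, from -0.12 to 0.01 in TGF-alpha, from -0.16 to -0.05 in heregulin and from -0.10 to 0.07 in untreated arrays. With the probe sets exchanged, the treated arrays thus overlapped the untreated ones in this mean, and what the used probe sets measure was not tested.

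**Figure D3:**
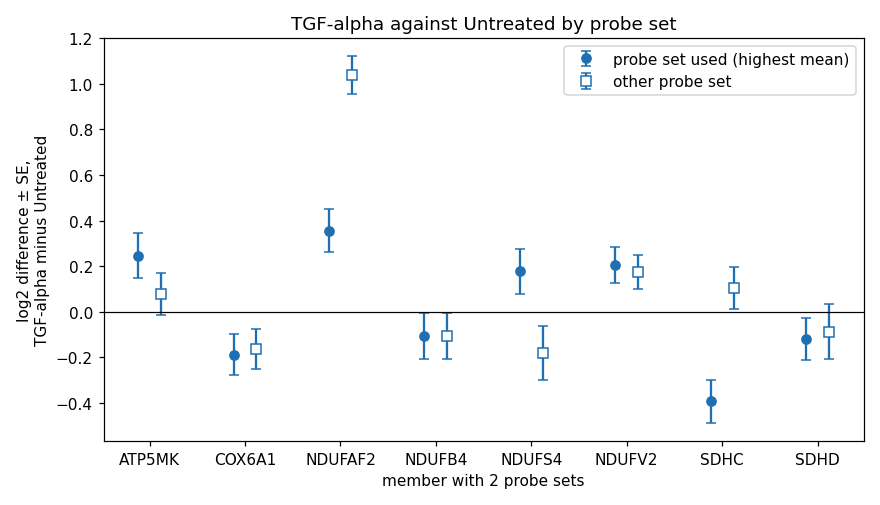
Log2 difference between TGF-alpha and untreated cells (± SE) for the 8 members with 2 probe sets, by the brighter probe set, which was used (filled), and by the other one (open). SDHC stands at -0.39 and 0.10, NDUFAF2 stands at 0.36 and 1.04, and the pair of NDUFB4 coincides.

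NDUFAF2 rose with TGF-alpha through both of its probe sets, by different amounts. Its used probe set, numbered with chromosome 5 where the gene lies, had levels between 6.91 and 7.18 in TGF-alpha cells, against 6.74, 6.59 and 6.69 in untreated cells. The other, numbered with chromosome 2, had 6.42, 6.61 and 6.73 in TGF-alpha cells, against 5.50, 5.55 and 5.59 in untreated cells, a log2 difference of 1.04 ± 0.08 (limma adjusted p = 5.6e-06 over all probe sets). Through this other probe set, AP1510 arrays lay at 5.89 to 5.94 and heregulin arrays at 5.91 to 5.96, above the untreated ones. These log2 differences were 0.36 (limma adjusted p = 0.12 over all probe sets) and 0.39 (0.022), against 0.08 and 0.04 through the used probe set. The used probe set of ATP5MK, a small subunit of complex V, is numbered with chromosome X and the gene lies on chromosome 10. Its log2 difference with AP1510 was 0.29 through that probe set and 0.01 through the other, and neither passed. Both probe sets of NDUFB4 carry identical values.

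Against untreated cells, limma called 1.47%, 26% and 8.5% of all genes with AP1510, TGF-alpha and heregulin, and none of the 7 complex III members. CYC1, a complex III subunit outside the symbol prefixes, rose with TGF-alpha, as described below. The 7 members of complex III had median log2 differences of -0.08 with AP1510, 0.00 with TGF-alpha and -0.13 with heregulin. With 1 array left out, the median ran from -0.0675 without untreated replicate 3 to 0.0708 without untreated replicate 2 for TGF-alpha. UQCRB, a small subunit that lies near the coenzyme Q site, differed most with TGF-alpha, by -0.33 on the log2 scale (limma adjusted p = 0.099), with levels of 4.95, 5.31 and 5.32 in TGF-alpha cells, against 5.78, 5.18 and 5.61 in untreated cells, which overlapped. UQCRC1, a core protein of the complex, had levels of 9.52, 9.72 and 9.61 in TGF-alpha cells, against 9.43, 9.38 and 9.27 in AP1510 cells, and this difference of 0.26 passed (limma adjusted p = 0.035). It was lost in 4 of 12 refits, with an adjusted p of 0.16 without TGF-alpha replicate 2, and after a second quantile normalization (0.1) or with only the 2 groups fitted (0.059).

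Complex IV gave no called change against untreated cells in limma among the 10 subunits in general use that are members. COXFA4, a complex IV subunit outside the symbol prefixes, was called lower with TGF-alpha and heregulin, as described at the end. Of all genes, 1.47%, 26% and 8.5% were called with AP1510, TGF-alpha and heregulin. The median log2 differences of complex IV were 0.01, -0.07 and -0.14 in the same order. The median for TGF-alpha ran from -0.109 without untreated replicate 3 to -0.0347 without TGF-alpha replicate 3. COX7C had the largest difference with TGF-alpha, with levels of 7.91, 8.07 and 8.01 in TGF-alpha cells and 8.44, 8.49 and 8.30 in AP1510 cells, against 8.34, 8.23 and 8.30 in untreated cells. TGF-alpha arrays lay below both other groups, and the log2 difference was -0.41 against AP1510 (limma adjusted p = 0.01) and -0.29 against untreated cells (limma adjusted p = 0.056). COX4I1, COX5A and COX5B, subunits that surround the catalytic core, had log2 differences of -0.11, 0.11 and -0.12 with TGF-alpha and 0.04, -0.10 and -0.25 with heregulin, and none passed against untreated cells.

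Several complex IV subunits exist as a widely used form and a form of particular tissues. COX7A1, the heart and muscle form, was measured at 7.33, 6.99 and 7.26 in heregulin cells, against 7.63, 7.64 and 7.40 in AP1510 cells, a log2 difference of -0.36 (limma adjusted p = 0.044). COX7A2, the widely used form, stood at 8.92, 8.48 and 8.73 in heregulin cells, against 8.99, 9.07 and 9.16 in AP1510 cells, also a difference of -0.36 (limma adjusted p = 0.045). Both calls were lost in 10 of 12 refits, with adjusted p of 0.17 without heregulin replicate 2, and with all probe sets tested (0.097). COX7A2L, a relative that joins complexes III and IV, differed by 0.12 between these groups without passing. Of the other widely used forms, COX6A1, COX6B1 and COX7B did not pass against untreated cells, with log2 differences of -0.19, -0.08 and 0.25 with TGF-alpha. COX8A fell by 0.34 in heregulin relative to TGF-alpha cells (limma adjusted p = 0.0071), with levels of 8.30, 8.32 and 8.22 in heregulin cells, against 8.53, 8.64 and 8.68 in TGF-alpha cells. COX8C, a testis form, fell by 0.24 with TGF-alpha at the threshold (limma adjusted p = 0.05 after rounding), with levels of 3.20, 3.24 and 3.35 in TGF-alpha cells, against 3.50 to 3.52 in untreated cells. Such low levels lie near those of the leukocyte gene PTPRC, and the call was lost in 8 of 12 refits, with an adjusted p of 0.15 without TGF-alpha replicate 1. The isoforms COX4I2, COX6A2, COX6B2 and COX7B2 did not pass in any contrast. Against untreated cells, 0 of 4 muscle markers were called in limma, where 1.47%, 26% and 8.5% of all genes were with AP1510, TGF-alpha and heregulin.

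Some complex V genes rose with TGF-alpha. Of its 16 subunits among the members, 3 rose and 0 fell, 18.8% and 0%, with a median log2 difference of 0.10. Of all genes, 12.5% rose and 13.4% fell, and of genes with a mean of at least 8, 24.5% and 24.7% did so. All 3 risers belong to the membrane part and stalk, as do 12 of the 16 subunits. ATP5MC1, a gene for the c subunit of the rotating ring, had log2 levels of 8.25, 8.43 and 8.30 in TGF-alpha cells, against 7.67, 7.96 and 7.64 in untreated cells. The TGF-alpha arrays lay above all others, with AP1510 cells at 8.04, 7.75 and 7.74 and heregulin cells at 7.79, 7.78 and 7.69. The log2 difference from untreated cells was 0.57 ± 0.11, a fold of 1.49 (limma adjusted p = 0.00067). ATP5MC2 and ATP5MC3, which encode the same mature c subunit, had levels of 9.02, 9.02 and 9.04 and of 5.52, 5.94 and 5.78 in TGF-alpha cells, against 8.88, 9.18 and 8.99 and 5.89, 6.01 and 5.86 in untreated cells. Their log2 differences were 0.01 and -0.17, the groups overlapped, and neither passed (limma adjusted p = 0.97 and 0.28).

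ATP5PF, a stalk subunit, and ATP5ME, a subunit of the membrane part, rose by 0.29 and 0.24 on the log2 scale with TGF-alpha (limma adjusted p = 0.035 and 0.037). These calls were lost in 5 and 4 of 12 refits, with adjusted p of 0.14 and 0.13 without TGF-alpha replicate 2. The 4 members that are subunits of the catalytic F1 part did not pass in any contrast. ATP5F1A and ATP5F1B, which form the catalytic hexamer, had log2 differences with TGF-alpha of -0.06 and -0.04, and ATP5F1C, the central shaft, one of -0.14. ATP5F1B lay at 12.44, 12.59 and 12.51 in TGF-alpha cells and 12.43, 12.31 and 12.39 in heregulin cells, against 12.54, 12.57 and 12.53 in untreated cells, so the heregulin arrays lay below the untreated ones, by -0.17 on the log2 scale (limma adjusted p = 0.25). ATP5PB, a peripheral stalk subunit, differed least with TGF-alpha, by -0.00.

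Promoters of chain genes are known for binding sites of NRF1 and of the ETS factor GABP, which drive many nuclear genes of mitochondria. RefSeq promoter windows of 300 bases, 250 before and 50 after a transcription start in GRCh38.p14, matched 77 of the 92 members. On either strand, the ETS core CCGGAAG stood in the windows of 29.9% of these members, against 12.2% of all 27305 genes, and the NRF1 core, GCGCA, any base and GCGC, in 24.7%, against 6.98%. The E-box CACGTG, the core bound by MYC and USF factors, stood in 10.4%, against 8.77%. A match is a run of letters and was not tested for binding. Among the 13 members that rose with TGF-alpha, 5 held the ETS core, 5 the NRF1 core and 3 the E-box, 38.5%, 38.5% and 23.1%. For the 4 matched members that fell these counts were 0, 1 and 0. For the 60 matched members not called with TGF-alpha they were 18, 13 and 5, or 30%, 21.7% and 8.33%. These differences were not tested. The windows below belong to the largest rises in complexes I and V, NDUFAB1 and ATP5MC1, to NDUFA8, a riser with the NRF1 core, and to NDUFA2, which fell with both growth factors. They lie at chr16:23596267-23596566 on the minus strand for NDUFAB1, chr17:48892537-48892836 on the plus strand for ATP5MC1, chr9:122159730-122160029 on the minus strand for NDUFA8 and chr5:140647581-140647880 on the minus strand for NDUFA2. They are given 5′ to 3′, and capitals mark the E-box in ATP5MC1 and 2 overlapping NRF1 cores in NDUFA8.
NDUFAB1: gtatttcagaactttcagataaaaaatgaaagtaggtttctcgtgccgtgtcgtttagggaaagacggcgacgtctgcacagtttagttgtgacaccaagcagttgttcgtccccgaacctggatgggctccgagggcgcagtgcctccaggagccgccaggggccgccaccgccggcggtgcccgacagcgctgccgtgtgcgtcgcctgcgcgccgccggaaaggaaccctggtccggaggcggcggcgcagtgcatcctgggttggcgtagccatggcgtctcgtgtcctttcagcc
ATP5MC1: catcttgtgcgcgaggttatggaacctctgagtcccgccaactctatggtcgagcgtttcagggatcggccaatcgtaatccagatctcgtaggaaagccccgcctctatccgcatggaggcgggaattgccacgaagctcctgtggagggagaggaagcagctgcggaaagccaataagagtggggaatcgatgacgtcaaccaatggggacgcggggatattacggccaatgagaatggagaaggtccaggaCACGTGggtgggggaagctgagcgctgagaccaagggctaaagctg
NDUFA8: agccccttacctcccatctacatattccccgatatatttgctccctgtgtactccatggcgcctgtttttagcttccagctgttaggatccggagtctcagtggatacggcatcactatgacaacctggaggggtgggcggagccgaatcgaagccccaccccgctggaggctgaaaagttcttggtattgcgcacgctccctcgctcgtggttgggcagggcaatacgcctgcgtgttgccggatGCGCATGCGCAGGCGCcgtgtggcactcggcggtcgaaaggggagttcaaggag
NDUFA2: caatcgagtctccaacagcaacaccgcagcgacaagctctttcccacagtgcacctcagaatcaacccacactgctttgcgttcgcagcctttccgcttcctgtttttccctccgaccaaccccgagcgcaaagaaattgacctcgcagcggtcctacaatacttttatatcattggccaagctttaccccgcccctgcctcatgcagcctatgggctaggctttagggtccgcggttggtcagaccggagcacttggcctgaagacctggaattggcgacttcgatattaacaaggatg

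The windows of NDUFAB1 and NDUFA2 held none of the 3 motifs. The ETS or NRF1 core stood in 49.4% of matched members, against 17.6% of all genes. By complex, it stood in 34.2% of matched members of complex I, all 5 of complex II, 83.3% of complex III, 42.9% of complex IV and 69.2% of complex V.

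With heregulin, most chain genes lay slightly below untreated cells. Of the 92 members, 74 had a negative log2 difference, of which 2 passed the test. The difference was also negative in 8871 of all 18417 genes and in 1823 of the 3114 genes with a mean of at least 8. In 30 of the 92, 32.6%, all 3 heregulin arrays lay below all 3 untreated arrays, against 13.3% of all genes and 25% of genes with a mean of at least 8. All 3 lay above in 2 members, 2.17%, against 10.5% of all genes, together 23.8%, and 15.6% of the bright genes. The median log2 differences of subunits were -0.12 in complex I, -0.20 in II, -0.13 in III, -0.14 in IV and -0.10 in V. Members on an array share its preparation and are not independent, and the genes with a mean of at least 8 had a median of -0.04 in the same contrast. Over all settings the members' median stayed between -0.15 and -0.10. The largest differences that did not pass were those of NDUFB3, a membrane-arm subunit, at -0.46 (limma adjusted p = 0.075), UQCRB at -0.35 (0.15) and ATP5F1C at -0.35 (0.09).

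Per array, the mean over the 34 complex I subunits relative to the untreated mean was -0.18 to -0.08 in heregulin cells, against -0.03 to 0.02 in untreated cells, and the groups did not overlap. In complex IV the heregulin arrays differed among themselves, with replicate 1 at 0.02 and the others at -0.23 and -0.18, against -0.04 to 0.02 in untreated cells, which overlapped. COX7B, a subunit of the complex, was read at levels of 8.45, 7.61 and 7.88 in heregulin cells, against 8.32, 8.18 and 8.15 in untreated cells. Complex V ran from -0.17 to -0.04 in heregulin cells and from -0.03 to 0.04 in untreated cells.

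**Figure D4:**
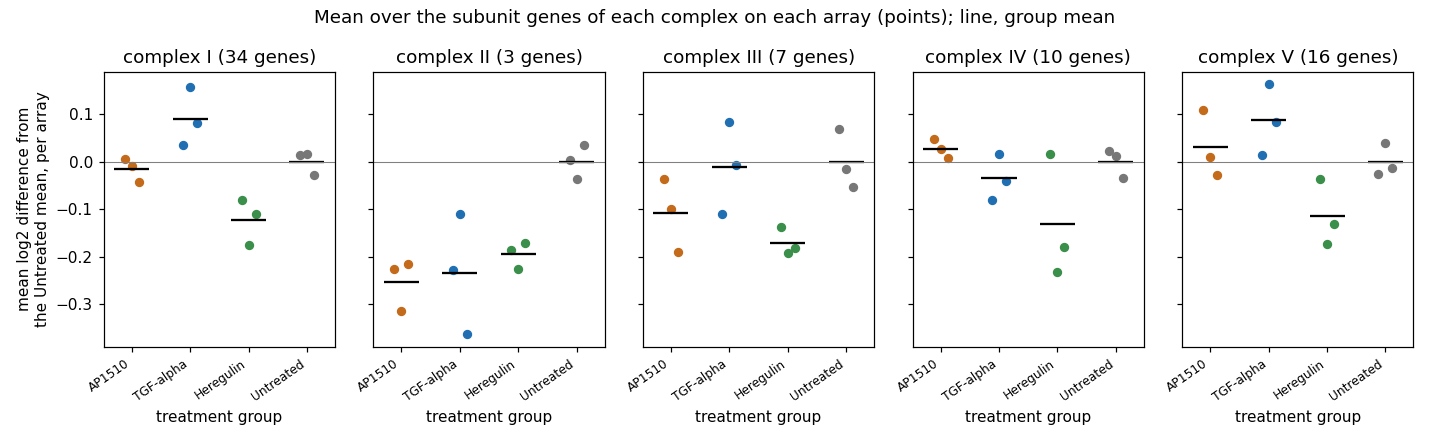
Mean log2 difference from the untreated mean over the subunit genes of each complex, on each array (points), with group means (lines), for AP1510, TGF-alpha, heregulin and untreated cells. Complex I lies at 0.03 to 0.16 in TGF-alpha and -0.18 to -0.08 in heregulin arrays; complex II rests on 3 genes, of which SDHC and SDHD were read by probe sets numbered with other chromosomes.

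With AP1510, the mean of each complex overlapped that of untreated arrays, except complex II through the probe sets described above. Complex I arrays ran from -0.04 to 0.01, against -0.03 to 0.02 in untreated cells, and complex V arrays from -0.03 to 0.11, against -0.03 to 0.04. All 3 AP1510 arrays lay above the untreated arrays in 9 members, 9.78%, and below in 13, 14.1%, where 7.36% and 9.93% of all genes did so, together 17.3%. NDUFA2 and SDHD, described above, were among the 13.

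Between treatments, TGF-alpha against AP1510 gave 11 members higher and 3 lower, 12% and 3.26%, where 11.2% and 10.4% of all genes were called, together 21.6%. NDUFAB1 led with a log2 difference of 0.82 (limma adjusted p = 2.5e-05), followed by NDUFAF4 with 0.74 (2.2e-05) and ATP5MC1 with 0.48 (0.0032), and NDUFB1 was the lowest with -0.43 (0.0025). All 3 TGF-alpha arrays lay above the AP1510 arrays in 28 members, 30.4%, and below in 7, 7.61%, where 18.8% and 17.7% of all genes did so, together 36.4%. The 11 became 5 on leaving out replicate 2 of either group, and 6 on leaving out replicate 3 of either group. Heregulin against AP1510 gave 0 members higher in limma, also 0 at an unadjusted p under 0.05, and 4 lower, where 3.27% and 3.95% of all genes were called, together 7.23%. All 3 heregulin arrays lay above the AP1510 arrays in 3 members, 3.26%, and below in 25, 27.2%, where 11.3% and 11.4% of all genes did so, together 22.7%. The 4 were COX5B, COX7A1, COX7A2 and the pseudogene UQCRBP1, the last with a log2 difference of -0.42 (limma adjusted p = 0.046). They became 0 on leaving out heregulin replicate 2 or 3, TGF-alpha replicate 3, AP1510 replicate 2 or untreated replicate 1 or 3. They became 1 on leaving out TGF-alpha replicate 1 or 2, AP1510 replicate 1 or untreated replicate 2, and 7 on leaving out heregulin replicate 1.

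Of the 6 contrasts, heregulin against TGF-alpha had the most calls among chain genes. It had 0 members higher in limma, also 0 at an unadjusted p under 0.05, and 24 lower, 26.1% of the members, where 9.88% of all genes were higher and 11.8% lower, together 21.6%. Among genes with a mean of at least 8, 19.2% were higher and 23% lower, so the members' share of lower calls was near that of bright genes. The median log2 difference was -0.16, against 0.03 over all genes and -0.04 over genes with a mean of at least 8. All 3 heregulin arrays lay below all 3 TGF-alpha arrays in 40 members, 43.5%, against 17.5% of all genes and 34.4% of the bright genes. They lay above in 3, 3.26%, against 16.9% of all genes, together 34.3%, and 26.3% of the bright genes. Complex I had 12 of 34 subunits lower, complex II 0 of 3, complex III 1 of 7, complex IV 2 of 10 and complex V 3 of 16, and 4 of 10 assembly factors were lower. The other 2 were ATP5IF1, which restrains ATP hydrolysis by complex V, and the pseudogene ATP5F1EP2.

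NDUFAB1, with the levels given above, differed by -1.04 ± 0.11 (limma adjusted p = 2e-06), NDUFB6 by -0.70 ± 0.18 (0.011) and ATP5MC1 by -0.58 ± 0.11 (0.0008). NDUFB3 had log2 levels of 5.26, 5.01 and 5.57 in heregulin cells, against 5.90, 5.72 and 5.85 in TGF-alpha cells, a difference of -0.55 (limma adjusted p = 0.016) without overlap. NDUFAF4 differed by -0.54 (limma adjusted p = 0.00041). COX7B, a complex IV subunit, had levels of 8.45, 7.61 and 7.88 in heregulin cells, against 8.47, 8.43 and 8.51 in TGF-alpha cells, and heregulin replicate 1 overlapped the TGF-alpha arrays. Its difference of -0.49 (limma adjusted p = 0.029) was lost in 5 of 12 refits, with an adjusted p of 0.14 without heregulin replicate 2.

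NDUFB5 and NDUFA2, low with both growth factors, had log2 differences of 0.00 and -0.00 between heregulin and TGF-alpha. The 24 became 14 without TGF-alpha replicate 2 and 15 without TGF-alpha replicate 3, and 1 member was higher without heregulin replicate 2. The contrasts of a group with the others share its arrays, so a high TGF-alpha array counts in each of them.

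**Figure D5:**
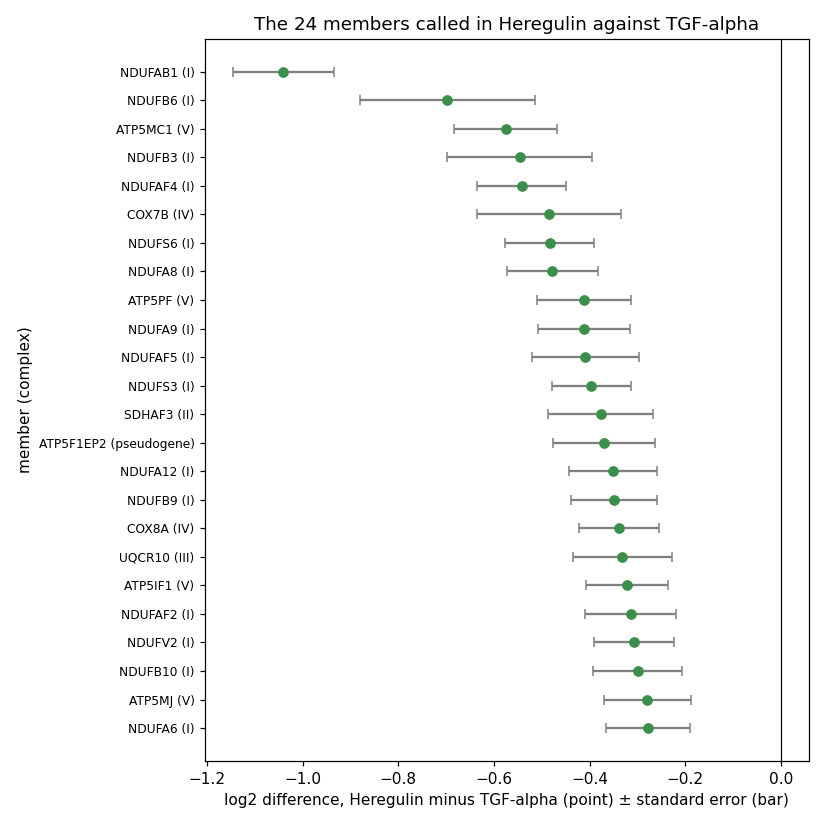
Log2 difference between heregulin and TGF-alpha cells (points) with its standard error (bars) for the 24 members called in this contrast, each with its complex. All 24 are lower in heregulin cells, from -1.04 for NDUFAB1 to -0.28 for NDUFA6.

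Outside the subunits, their tissue isoforms and the assembly factors, ATP5IF1, ATP5F1EP2 and UQCRBP1 were called, each only between treatments. ATP5IF1 had log2 levels of 6.96, 6.89 and 6.82 in heregulin cells, against 7.11, 7.20 and 7.32 in TGF-alpha cells, a difference of -0.32 (limma adjusted p = 0.012) without overlap. ATP5F1EP2 had 7.02, 6.64 and 6.97 in heregulin cells, against 7.15, 7.37 and 7.23 in TGF-alpha cells, a difference of -0.37 (limma adjusted p = 0.02). As a pseudogene it resembles the gene for a complex V subunit, and signal of one on the other's probes cannot be told apart here, which holds for UQCRBP1 and UQCRB too. ATP5MGL, a copy related to ATP5MG, NDUFV1-DT, a divergent transcript, and COX7A2L did not pass in any contrast.

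Other genes of the pathway were read as lists. Counts without a named treatment are those with TGF-alpha, where 12.5% of all genes rose and 13.4% fell. Among genes with a mean of at least 6, these shares were 20.4% and 21.4%. In the list of complex I assembly factors, which includes the members named above, 5 of 15 measured genes rose and 1 fell, 33.3% and 6.67%. In that of complexes II to V, 7 of 32 rose and 1 fell, 21.9% and 3.12%. COA7, a complex IV factor, rose by 0.99 (limma adjusted p = 1.9e-05), and ACAD9, needed for complex I assembly, fell by 0.28 with TGF-alpha and by 0.37 with heregulin (limma adjusted p = 0.038 and 0.021). The calls of ACAD9 were lost without untreated replicate 2, with adjusted p of 0.14 and 0.084. Of 16 genes for cytochrome c and coenzyme Q, 3 rose and 3 fell, 18.8% each. PDSS1, which starts the coenzyme Q tail, and CYC1, the haem subunit of complex III, rose by 0.77 and 0.50, and COQ10B fell by 0.60. Of 17 genes of pyruvate dehydrogenase and the TCA cycle, 3 rose and 4 fell with TGF-alpha, 17.6% and 23.5%. Among those that fell was PC, pyruvate carboxylase, with levels of 7.90, 7.97 and 7.90 in TGF-alpha cells, against 9.48, 9.40 and 9.39 in untreated cells (limma adjusted p = 3.3e-09). Of 10 carriers and related genes, 3 rose and 0 fell, the outer membrane channels VDAC3, VDAC1 and VDAC2, and the call of VDAC2 was lost without untreated replicate 2 (limma adjusted p = 0.14).

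Of 18 regulators of mitochondrial biogenesis and mitochondrial DNA expression, 7 rose and 1 fell with TGF-alpha. These were 38.9% and 5.56%, where 12.5% of all genes rose and 13.4% fell. PPARGC1A, the coactivator PGC-1alpha, had log2 levels of 7.28, 7.08 and 7.41 in AP1510 cells, 6.30, 6.10 and 6.35 in TGF-alpha cells and 7.57, 7.18 and 7.46 in heregulin cells, against 8.04, 7.92 and 8.03 in untreated cells. It was lower on all 9 treated arrays, with log2 differences of -0.74, -1.75 and -0.59 (limma adjusted p = 0.004, 1.7e-08 and 0.0032). Its relatives PPRC1 and PPARGC1B rose by 0.68 and 0.64 with TGF-alpha, and TFB1M and SSBP1, which serve mitochondrial ribosomes and DNA, by 0.91 and 0.82. With AP1510, PC and PPARGC1A, both lower, were the genes called among these lists.

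Gene groups that also serve mitochondria or share high expression were read the same way. Of 74 mitochondrial ribosomal protein genes, 37 rose and 1 fell with TGF-alpha, with a median log2 difference of 0.29. These were 50% and 1.35%, where 12.5% of all genes rose and 13.4% fell. In heregulin relative to TGF-alpha cells, 42 of the 74 were lower, 56.8%, where 11.8% of all genes were. Of 66 cytosolic ribosomal protein genes, 14 rose and 0 fell with TGF-alpha, 21.2% and 0%, with a median of 0.14. With heregulin 0 were called in limma, where 8.5% of all genes were, with a median of 0.03 over the 66. The differences between these groups and the chain genes, with medians of 0.05 and -0.12, were not tested.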

How the data were processed

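Transcript levels were measured on 12 Affymetrix arrays in 4 groups of 3. The authors deposited RMA values, which are log2 intensities, per the submitters' processing notes; no version is given in the sources used here. RMA corrects background, equalises the distributions of arrays and summarises probes, so a change in total RNA per cell is not visible. Symbols came from the platform annotation, brought up to date by Entrez ID against the RefSeq annotation of GRCh38.p14, where 19429 of 19460 probe sets with 1 gene were found. Probe sets with several genes (1754) or no listed gene (12083) were left out.

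All 18417 genes were fitted with limma 3.58.1 in R 4.3.3, as 1 model with a mean per group (8 residual and 7.55 prior degrees of freedom, median moderated SD 0.128), without a block, since replicates were numbered in order of listing and pair nothing. The 6 contrasts were tested two-sided with Benjamini-Hochberg adjustment over genes, threshold 0.05, and the procedure was tested on simulated data. The number of arrays limits the precision. The members, gene lists, motifs and tests were chosen with earlier results of these data known, and the E-box search and the exchange of probe sets by chromosome were added after seeing the data. Members were named where they were among the 8 largest called rises or falls against untreated cells, extreme or least changed in a complex, catalytic or core, paralogs, outside the subunits, or among 6 called between treatments, and up to 4 called genes per pathway list were named. NDUFA8, NDUFS3, NDUFAF5, ATP5PF, ATP5ME and PPARGC1B, and the remaining genes named outside this rule, were chosen after their values were seen. Alternatives were the mean of a gene's probe sets, a second quantile normalization, median centring, leaving out genes with a mean under 6, testing all probe sets, a trended and robust variance, array weights, fitting 2 groups only, and leaving out each array.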

Additional observations from a re-analysis of the deposited data

How the results depend on the processing

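Every count below is of members called by limma at an adjusted p under 0.05. Falls with AP1510 numbered 1 with dim genes left out and 1 with a trended and robust variance. Falls with TGF-alpha numbered 10 with array weights. Falls with heregulin numbered 8 with dim genes left out, 1 with all probe sets tested, 9 with a trended and robust variance, 13 with array weights and 1 with 2 groups fitted. For heregulin against AP1510, lower members numbered 7 after a second quantile normalization, 7 with dim genes left out, 0 with all probe sets tested, 8 with a trended and robust variance, 11 with array weights and 0 with 2 groups fitted. For heregulin against TGF-alpha, array weights gave 2 higher and 38 lower. The F test called 14 with all probe sets tested and 48 with array weights. Testing all probe sets raises the number of tests, and the cause of the other shifts was not tested. The median log2 difference of complex II with AP1510 was -0.15 with the mean of probe sets and -0.0669 with probe sets of the own chromosome, and with heregulin it was -0.16 with array weights. For heregulin against AP1510 it was 0.0036 with the mean of probe sets and reversed to -0.0555 with probe sets of the own chromosome, where SDHC with TGF-alpha also reversed, to 0.10. Complex IV for TGF-alpha against AP1510 was -0.16 after a second quantile normalization. Leaving out 1 array at a time gave 6 to 15 rises and 3 to 8 falls with TGF-alpha, 0 to 4 falls with heregulin, 5 to 13 higher members for TGF-alpha against AP1510, 0 to 7 lower for heregulin against AP1510, 0 to 1 higher and 14 to 25 lower for heregulin against TGF-alpha, and 12 to 29 in the F test. It moved the median log2 difference of complex I with AP1510 between -0.0575 and -0.0084, of complex II for heregulin against AP1510 between 0.0183 and 0.12, of complex III with heregulin between -0.20 and -0.0837 and for TGF-alpha against AP1510 between 0.0195 and 0.16, and of complex IV with AP1510 between -0.0202 and 0.0461, where it reversed without untreated replicate 3. With TGF-alpha the medians ran from 0.0395 to 0.0919 for complex I, -0.0675 to 0.0708 for complex III and -0.109 to -0.0347 for complex IV. With AP1510 they ran from -0.1168 to -0.0338 for complex III and -0.02 to 0.066 for complex V, with heregulin from -0.1916 to -0.0928 for complex IV and -0.1294 to -0.0624 for complex V, and for heregulin against TGF-alpha from -0.0169 to 0.0377 for complex II and -0.1708 to -0.0613 for complex IV. Rises with AP1510 and with heregulin, and higher members for heregulin against AP1510, stayed at 0 in limma under every alternative run. No alternative read the dimmer probe set of NDUFAF2 alone, through which the rise with heregulin passed, as described above. Over the 92 members and 6 contrasts there were 63 calls. Array weights added 46 and ended 1, a trended and robust variance added 26 and ended 1, leaving out dim genes added 25 and ended 10 (removed members included), a second quantile normalization added 11 and ended 9, median centring added 6 and ended 3, fitting 2 groups added 5 and ended 11, the mean of probe sets added 1 and ended 1, testing all probe sets ended 17, and probe sets of the own chromosome ended 1. No paired analysis was possible because replicate numbers follow the order of listing and pair no samples.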

Other observations

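COXFA4, the complex IV subunit once named NDUFA4, is not taken in by the symbol prefixes under its current name. It had log2 levels of 8.30, 8.37 and 8.20 in TGF-alpha cells and 8.43, 8.31 and 8.23 in heregulin cells, against 8.67, 8.50 and 8.74 in untreated cells. Both groups lay below the untreated arrays, by -0.35 and -0.32 on the log2 scale (limma adjusted p = 0.0084 and 0.042). AP1510 cells, at 8.59, 8.47 and 8.53, overlapped them.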
